A study of Sus scrofa with 46 samples.

Results

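The genes described here are those of the cytosolic ribosomal proteins in the liver of newborn piglets. Members were the rows of the gene table whose symbol starts with RPL or RPS and a number, together with the stalk genes RPLP0, RPLP1 and RPLP2 and RPSA, and the ribosomal S6 kinases were left out. This gave 83 of the 18440 genes of the table, of which 45 encode proteins of the large subunit and 31 proteins of the small subunit. A further 6 are paralogs, RPL3L, RPL7L1, RPL22L1, RPL26L1, RPL36AL and RPS27L. The last, RPS19BP1, met the rule by its symbol and encodes a protein that binds RPS19, not a protein of the ribosome. The 76 genes of the 2 subunits are most of the 80 that a cytosolic ribosome was listed to have. Among the others, FAU and RACK1 are in the table under symbols outside the rule, and RPL41 was not analysed here.

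Liver RNA was sequenced from 46 piglets reared for 72 h after birth, the offspring of Danish Landrace and Yorkshire sows and Duroc boars. Of the normal-sized piglets 11 were left untreated and 12 were treated, and of those with intrauterine growth restriction (IUGR) 10 were left untreated and 13 were treated. IUGR was judged by eye from a steep forehead and other features of the head and hair. Treated piglets received a commercial energy paste, Piggy Boost, by mouth. Littermates were spread over the groups by design, but the labels give neither litter nor week of sampling nor sex, and none of them entered a test.

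A cytosolic ribosome is built from a large and a small subunit, each of ribosomal RNA and 1 copy of nearly every protein. Its protein genes share a pyrimidine tract at the start of their mRNAs, through which the kinase mTORC1 controls their translation when nutrients and growth factors are present, and they are known to be expressed in near proportion to each other. The liver of a newborn makes large amounts of plasma protein, and albumin, apolipoprotein and clotting factor mRNAs take up much of its transcriptome.

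Depth was 15036591 to 19340218 counts per library (median 15902518), with 15720 to 16196 genes detected. The liver identity of the samples was clear from all 9 hepatocyte markers looked for, albumin, transferrin and HNF4A among them. A library is tied to its group only by a pig number above its column of counts. It is in doubt that every number is above the correct column, so groups are given as labelled, and the group differences are those of the labels and depend on these numbers. The libraries of pigs 38 (labelled IUGR untreated), 39 and 46 (both labelled IUGR treated) stood apart. In this order their totals were 17583188, 18870256 and 19340218 counts, and the largest total of any other library was 17963109. The part of depth was not tested. Over all genes outside the members, the median correlation of these 3 with the remaining libraries was 0.762 to 0.842, and for each of the other 43 it was 0.953 to 0.966. They are kept in the tests, and results for the members are given with and without them.

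All 83 genes were expressed in every liver, the smallest count of any of them in any library being 10, and all 83 were among the 13780 genes that passed the filter on low counts. They lie on 17 chromosomes, most often on chromosome 6 with 12 genes and chromosome 1 with 11, and 4 are on the X. Together they took 1.74 to 3.24% of the counts of a library (median 2.26%). In normal-sized piglets the summed share was 1.92 to 3.01% (median 2.51%) without and 1.86 to 2.94% (median 2.18%) with the paste. In IUGR piglets it was 2.10 to 3.07% (median 2.54%) without and 1.74 to 3.24% (median 2.25%) with the paste. All 4 groups overlapped over most of their range. The highest value, 3.24%, came from pig 46, and without pigs 39 and 46 the treated IUGR piglets reached at most 2.62%. The lowest, 1.74%, came from pig 65 of the same group. In that library the 10 most abundant genes took 29.8% of the counts. Over the total without them its share was 2.48%, again the lowest of the 46. In pig 46 the 10 most abundant genes took 20.0% of the counts. Over the total without them its share was 4.05%, below the 4.19% of pig 17, so pig 46 was no longer the highest. The part of the 10 genes in the share was not tested.

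**Figure D1:**
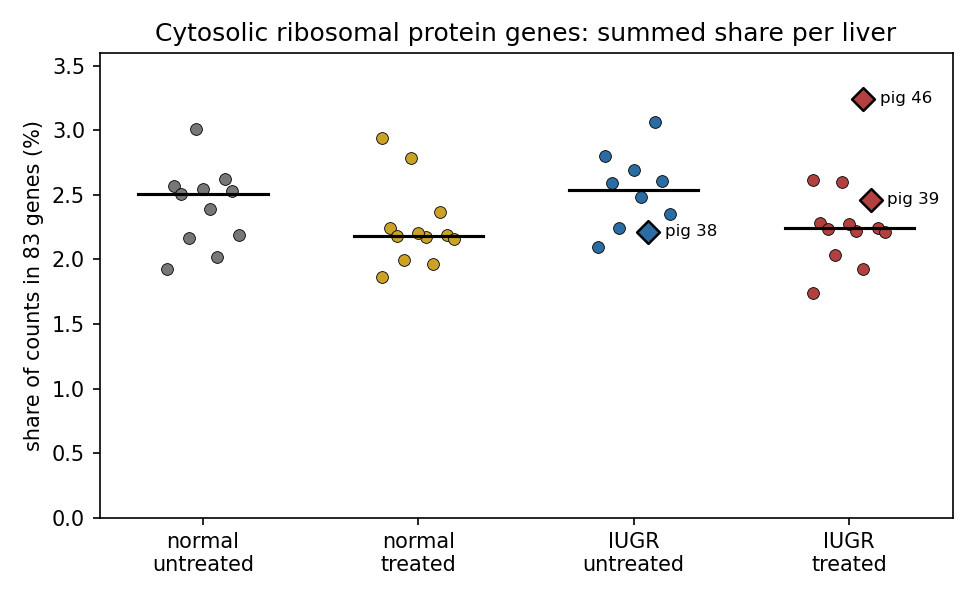
Share of each library's counts in the 83 genes (%, axis from 0) for the 4 groups as labelled. Points are piglets, diamonds the libraries of pigs 38, 39 and 46, and bars the group medians. The groups overlap, from 1.74% in pig 65 to 3.24% in pig 46, and pigs 38 and 39 lie among the others.

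Across the other 43 livers the genes moved together. Over the 3403 pairs of members the median correlation of log2 CPM (counts scaled to one library total with TMM factors) was 0.80, and 99.9% of the pairs correlated positively, whereas the median over all pairs of tested genes was -0.00. Between the 76 genes of the 2 subunits the median was 0.82 and no pair was below 0.35. Removing the labelled group means left the median at 0.80. These are correlations over libraries that share the same scaling, given as a description. With pigs 38, 39 and 46 included, the median over pairs of members was 0.50 and 70.6% of the pairs were positive.

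RPL19 of the large subunit moved most closely with the rest, with a median correlation with the other members of 0.88 over the 43 libraries, followed by RPL31 and RPL34 at 0.87 each. RPL19 ranged from 225 to 403 CPM in these libraries. The SD of log2 CPM over the 43 libraries was 0.14 (RPL15) to 0.48, with a median over members of 0.23, against 0.32 over all tested genes and 0.25 over the 2750 other genes of a similar CPM. The genes furthest from the common course were paralogs. RPL3L, which replaces RPL3 in muscle ribosomes, had a median correlation with the other members of 0.19, and RPS27L, a target of p53 in human cells, of 0.34. RPL22L1, the paralog of RPL22, had 0.51, RPL26L1 0.58 and RPL7L1 0.60. Among the genes of the subunits, RPS4X, the X-linked copy of RPS4, was lowest at 0.65, followed by RPS2 at 0.66. Members also correlated positively with 25 translation factors and related genes that carry the pyrimidine tract (median 0.61) and with 76 mitochondrial ribosomal proteins (0.51), less with 51 ribosome biogenesis factors (0.32), and at a median of -0.00 with the other tested genes.

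**Figure D2:**
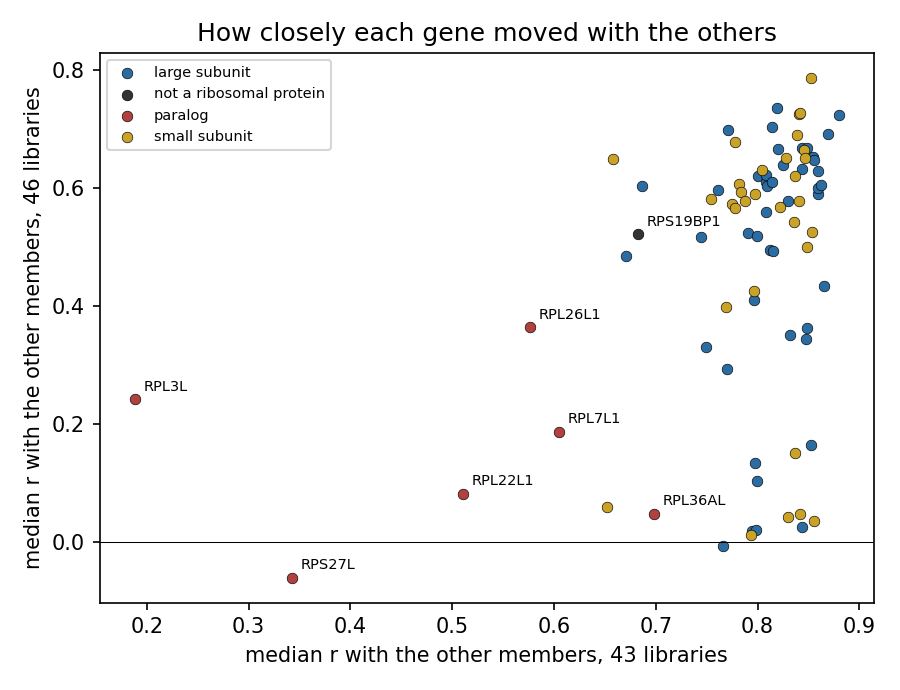
Median Pearson correlation of log2 CPM of each of the 83 genes with the other members over the 43 libraries (x axis) and over all 46 (y axis), coloured by class. On the x axis most genes of the subunits lie near 0.80 and the paralogs RPL3L, RPS27L and RPL22L1 lie lowest, while on the y axis RPL22, RPL9, RPL7 and RPL39 drop to near 0.

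In pigs 38, 39 and 46 this proportion was lost, with some genes many-fold below and others above every other liver. RPL9 of the large subunit (chr8:30693198-30699189 on Sscrofa11.1) was at 282 to 536 CPM (median 371) in the 43 other libraries and at 21.0, 12.5 and 25.7 CPM in pigs 38, 39 and 46. RPL22, an RNA-binding protein of the large subunit (chr6:67092892-67102086), was at 97.7 to 177 CPM (median 134) in the 43 and at 8.10, 5.37 and 7.48 CPM in these 3. The 3 libraries did not overlap the rest for either gene. The deposited counts of RPL9 are mostly not whole, as are those of RPL7A, RPL7L1, RPL11, RPL14, RPL29, RPL35A, RPL36A, RPS2, RPS21 and RPS25. The counts of these genes are thus estimates. Where these reads come from was not tested, and the level of these genes is uncertain.

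RPL13, another protein of the large subunit (chr6:410923-413396), went the other way. It was at 146 to 302 CPM (median 203) in the 43 libraries and at 392, 411 and 662 CPM in pigs 38, 39 and 46. As a result the ratio of RPL13 to RPL9, 0.463 to 0.731 in the 43 libraries, was 18.6, 32.9 and 25.8 in the 3. This pair was chosen after the values were seen, and since CPM is not corrected for gene length the ratio can be compared between libraries only.

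Of the 83 genes, 27 (32.5%) were below all 43 other libraries in each of the 3, where 27.4% of all tested genes were. Above all 43 were 29 (34.9%), where 19.1% of all tested genes were. Of the 25 translation factors 44% were below and 40% above, and of 20 genes of mTORC1 signalling 30% and 40%. The mitochondrial ribosomal proteins had 30.3% below and 23.7% above, and the ribosome biogenesis factors 39.2% and 11.8%. The share of genes over 2-fold below the mean of the 43 in all 3 libraries, 19 of 83 or 22.9%, was close to the 23.4% of all tested genes. Only RPS19BP1 was over 2-fold above it in all 3, where 4.58% of all tested genes were. The share of low genes among the members was thus near that of all genes.

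Of the 19 low genes 9 encode proteins of the large subunit, 6 proteins of the small subunit and 4 are paralogs. In log2 units below the mean of the 43, in the order of pigs 38, 39 and 46, RPL22L1 was at -4.51, -5.34 and -4.06, and RPL9 at -4.11, -4.85 and -3.82. RPS3A of the small subunit was at -3.78, -4.67 and -3.78. RPL39, a short protein that lines the exit tunnel, was at -3.80, -4.29 and -3.81. RPL22 was at -4.01, -4.59 and -4.12. RPS24 and RPL7 reached -4.39 and -4.34 in pig 39, and RPS27A, made as a fusion with ubiquitin, -3.53. The others were RPL36AL, RPS27L, RPL21, RPS27, RPL26, RPL23, RPS4X, RPS15A, RPL7L1 and RPL36A, and RPL6 was the nearest to the 2-fold line at -1.22, -1.41 and -1.01.

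At the other end were RPS9, RPS14 and RPL13. RPS14, the small subunit gene whose loss causes the anaemia of the human 5q deletion syndrome, was 0.73, 1.08 and 1.74 log2 units above the mean in pigs 38, 39 and 46, and RPS9 0.95, 0.94 and 1.68. Pig 46 was the highest of the 3 for these genes and for the summed share. Between these ends stood genes that hardly left the range of the 43, such as RPL11 at -0.19, -0.01 and 0.36, RPL32 at 0.07, -0.09 and 0.41, and RPL10A at -0.01, -0.06 and 0.21.

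The 3 libraries put the members in nearly the same order, although RPL22L1 was lowest in pigs 38 and 39 and RPL22 in pig 46. The deviations over the 83 genes correlated at 0.99 (pigs 38 and 39), 0.98 (38 and 46) and 0.99 (39 and 46). In the same order, the correlations over all tested genes were 0.91, 0.87 and 0.88. They were 0.99, 0.99 and 0.99 over the 25 translation factors and 0.98, 0.96 and 0.97 over the 76 mitochondrial ribosomal proteins. Each deviation is measured from the same mean of 43 libraries. The mean pattern was sought in each of the 43 others after the data were seen. Their slopes on it were -0.04 to 0.05, where a slope of 1 is the mean pattern of the 3. Their correlations with it across the members were -0.51 to 0.58, and in 4 libraries the correlation was over 0.5 in size.

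**Figure D3:**
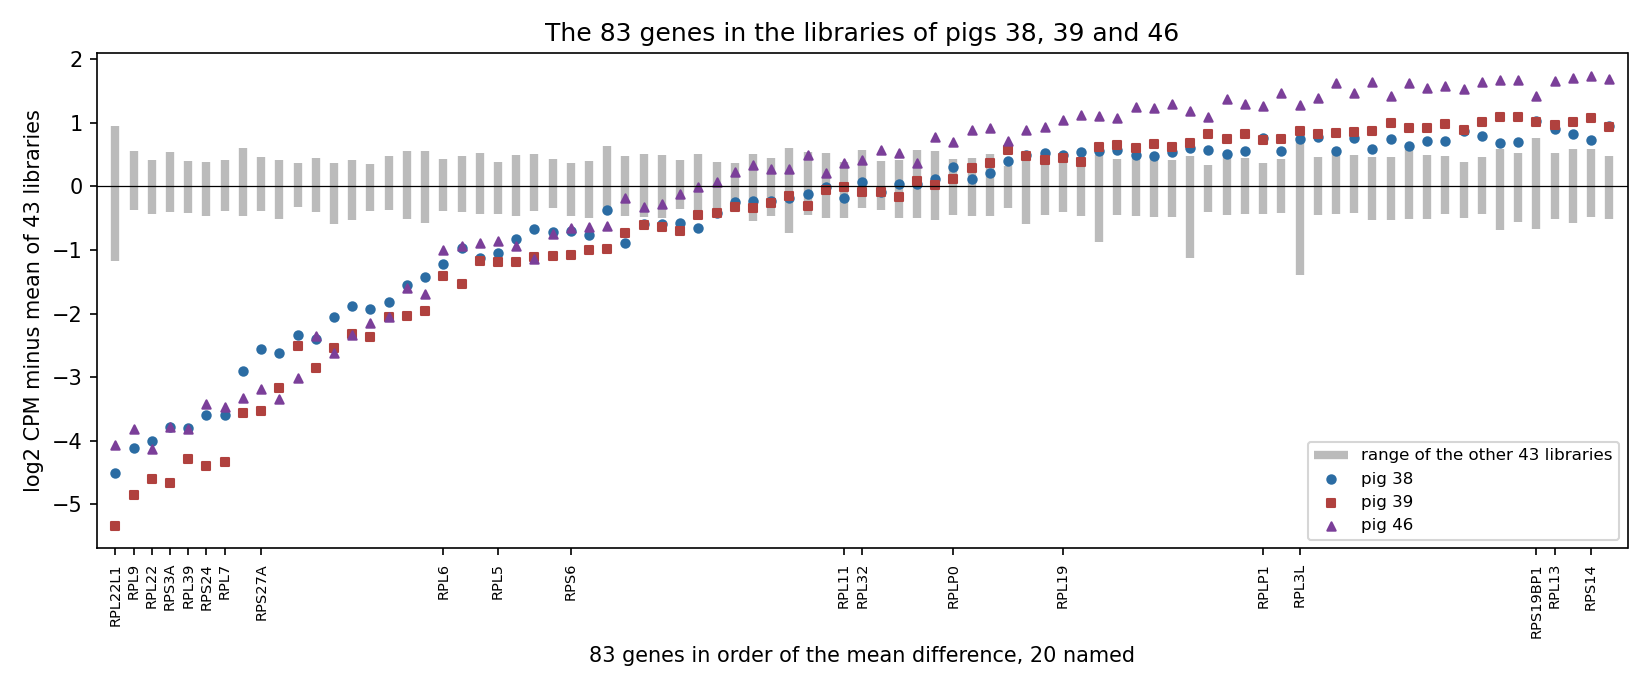
Log2 CPM of each of the 83 genes in pigs 38, 39 and 46, as the difference from the mean of the other 43 libraries, with the genes in order of the mean difference and 20 of them named. Grey bars give the range of the 43 libraries. The 3 libraries run together, from RPL22L1 at -4.06 to -5.34 up to RPS14 at 1.74 in pig 46, and genes at both ends lie outside the grey range.

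Genes whose proteins work together in the ribosome could differ in mRNA level in these libraries. Of the stalk, which recruits elongation factors, RPLP1 and RPLP2 were above all 43 other libraries in all 3 (RPLP1 at 966, 944 and 1357 CPM against 418 to 735), and RPLP0 was at 831, 728 and 1081 CPM against 491 to 904. RPL5 and RPL11 bind the 5S ribosomal RNA together and, when free, the p53 regulator MDM2. RPL5 was at 210, 190 and 240 CPM, below the 321 to 567 CPM of the others, while RPL11 at 235, 266 and 345 CPM lay within their 189 to 351 CPM. RPS6, the small subunit protein that S6 kinase phosphorylates, was at 302, 234 and 313 CPM against 354 to 633.

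Paralogs also split from their partners. In the 43 libraries the log2 ratio of RPL26 to RPL26L1 was 3.87 to 4.76, and in pigs 38, 39 and 46 it was 2.51, 2.07 and 1.44, since RPL26 was low and RPL26L1 was not. For RPL7 and RPL7L1, which acts in the assembly of the large subunit, the ratio was 2.33 to 3.14 in the 43 and 0.55, 0.30 and 0.73 in the 3. RPL36A and RPL36AL went the other way, at 0.08 to 1.00 in the 43 and at 2.03, 2.16 and 2.21 in the 3. RPL22 and RPL22L1 fell nearly together, with a ratio of 1.51 to 3.14 in the 43 and of 2.80, 3.16 and 2.19 in the 3, while RPL3 to RPL3L lay within the range of the 43 in all 3. For RPS27 and RPS27L the ratio was 1.82 to 2.79 in the 43 and 2.67, 3.08 and 2.72 in the 3. Reads may be shared between near-identical copies, which was not tested, so the levels within a pair are uncertain. Among the genes of these pairs, the values not whole were 100% for RPL36A and 82.6% for RPL7L1. They were at most 2.17% (RPS27) for the others.

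Each of the 3 libraries left the range of the 43 for some cell markers, pig 38 for the erythroid markers only. No list of markers set all 3 apart, and the part of other cells in the pattern was not tested. In whole liver RNA, fewer cells of a type and less RNA per cell cannot be told apart. The summed CPM of the 9 hepatocyte markers was 116217, 72989 and 87387 in pigs 38, 39 and 46, against 79516 to 222980 in the 43. The 12 erythroid markers were at 2728, 1302 and 3103 against 153 to 2547, and the 8 Kupffer cell markers at 2180, 2657 and 2851 against 1036 to 2347. The stellate cell markers were at 909, 1133 and 2662 against 354 to 1782, and the endothelial markers at 1012, 1362 and 793 against 326 to 1049. The cholangiocyte markers were above the range of the 43 in pig 46, at 66.2 against 13.9 to 52.7, and the T and NK cell markers in pig 39, at 15.4 against 3.83 to 14.6. The B cell, neutrophil and proliferation markers lay within the range of the 43 in all 3. No marker of these lists was at 0 in all libraries.

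**Figure D4:**
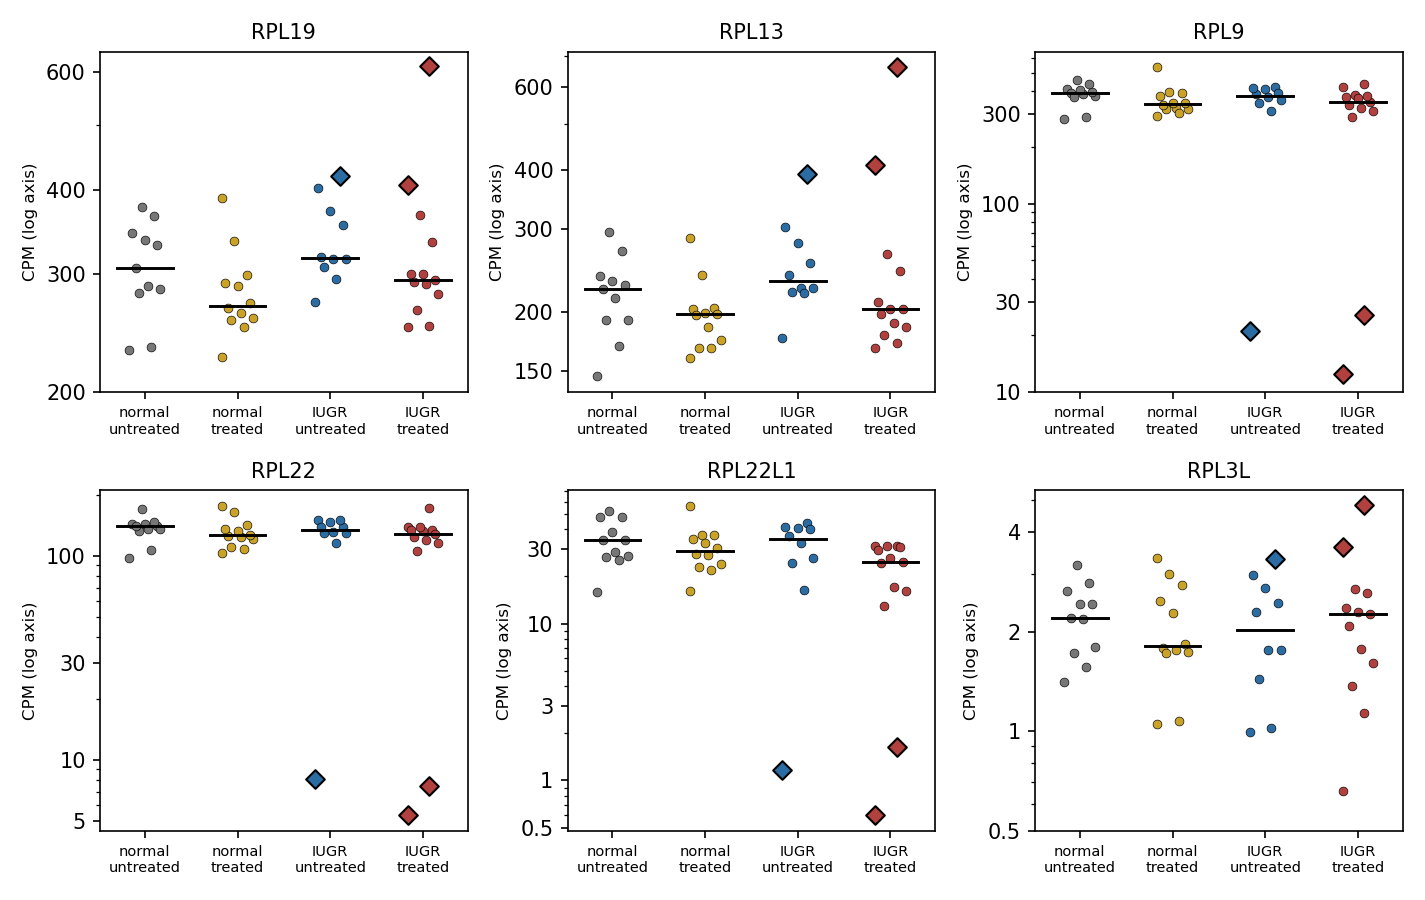
CPM (log axes) of 6 of the genes in the 4 groups as labelled. Points are piglets, diamonds pigs 38, 39 and 46, and bars the group medians. RPL9, RPL22 and RPL22L1 are far below the rest in the 3 libraries, and RPL13 and RPL19 are above them.

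No ribosomal protein gene differed between groups by edgeR's quasi-likelihood test with Benjamini-Hochberg adjustment over all 13780 genes. The comparison of untreated IUGR with untreated normal-sized piglets asked what growth restriction does to the liver without the paste. None of the 83 genes passed an adjusted p of 0.05 (all tested genes 0.0435%), nor with DESeq2 (0.863%), limma voom (1.21%) or edgeR without pigs 38, 39 and 46 (1.44%). At an unadjusted p under 0.05 none was higher and RPL26L1 alone was lower, where 6.45% of all tested genes were higher and 6.09% lower. Negative log2 fold changes were found in 39 of 83, beside 49% of all tested genes, and the median of the 83 was 0.01, the same as that of all tested genes. Without the 3 libraries 1 member was higher and 2 were lower at an unadjusted p under 0.05, beside 6.6% and 9.53% of all tested genes. RPL26L1 (chr16:51267492-51276692) was at 13.2 to 20.8 CPM (median 16.5) in untreated normal-sized and at 12.5 to 17.0 CPM (median 14.9) in untreated IUGR piglets. The groups overlapped, with a log2 fold change of -0.20 ± 0.09 (SE, n = 11 and 10, edgeR adjusted p = 0.370). RPL7L1 had a larger difference with a larger error, at -0.33 ± 0.18 (edgeR adjusted p = 0.464). On the higher side were RPL7A, at 0.25 ± 0.16, RPL10, which joins the large subunit last, at 0.22 ± 0.15, and the stalk genes RPLP0 at 0.16 ± 0.11 and RPLP1 at 0.20 ± 0.15, none past the threshold.

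The same comparison in treated piglets also called none of the 83 (all tested genes 0.00726%), none with DESeq2 (0.0543%) and none with limma voom (0.138%). Here 13 members (15.7%) were higher and none lower at an unadjusted p under 0.05, beside 13.7% and 3% of all tested genes, and 30 of 83 had a negative log2 fold change, beside 47.5%. RPS21 of the small subunit (chr17:61763606-61764823) had the smallest p. It was at 80.7 to 149 CPM (median 102) in treated normal-sized and at 76.3 to 295 CPM (median 111) in treated IUGR piglets. The high end came from pigs 46 and 39, at 295 and 219 CPM, and without them the IUGR piglets were at 76.3 to 142 CPM, overlapping the normal-sized piglets over nearly their whole range. The log2 fold change of RPS21 was 0.37 ± 0.15 (SE, n = 12 and 13, edgeR adjusted p = 0.238) with all libraries and 0.10 ± 0.10 (edgeR adjusted p = 0.949) without pigs 38, 39 and 46. RPL8 went from 0.38 ± 0.16 to 0.04 ± 0.09, and RPS19BP1 from 0.39 ± 0.17 to 0.11 ± 0.12. Without the 3 libraries none of the 83 had an unadjusted p under 0.05 in either direction, beside 2.95% of all tested genes higher and 3.28% lower, and their median fell from 0.05 to 0.00. RPL22L1, the lowest of the members, was at -0.52 ± 0.35 with all libraries and at -0.29 ± 0.19 without the 3.

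In normal-sized piglets the log2 fold changes with the paste were small and nearly all of 1 sign. None of the 83 passed the threshold (all tested genes 0%), and DESeq2 called none (0.168%). All 83 had a negative log2 fold change, 81 of 83 with the size factors of DESeq2, against 50.9% of all tested genes, with a median of -0.13 against -0.00. Because the genes move together from liver to liver, the 83 signs are not 83 separate observations. At an unadjusted p under 0.05 3 members were lower, RPL26L1, RPL27 and RPS13, and none was higher, beside 5.45% and 3.08% of all tested genes. RPL26L1 was at 13.2 to 20.8 CPM (median 16.5) in untreated and 10.9 to 18.6 CPM (median 13.5) in treated piglets, with a log2 fold change of -0.25 ± 0.09 (SE, n = 11 and 12, edgeR adjusted p = 0.339). RPL27 of the large subunit (chr12:19892210-19894202) was at 63.0 to 112 CPM (median 92.7) in untreated and 56.2 to 103 CPM (median 70.9) in treated piglets, with -0.29 ± 0.11 (edgeR adjusted p = 0.416). Both genes overlapped widely between the groups. RPS13 was at -0.25 ± 0.12 and RPL32 at -0.18 ± 0.09. With limma voom and sample quality weights, RPL26L1, RPL27, RPL3 and RPS23 passed the threshold at -0.30, -0.33, -0.29 and -0.27 (limma adjusted p = 0.0210, 0.0284, 0.0483 and 0.0485), in a fit that called 5.68% of all tested genes. At an unadjusted p under 0.05 that fit had 33 members lower, beside 13.4% of all tested genes. Pigs 38, 39 and 46 are in neither group but share the estimate of the spread. Without them 14 members were lower at an unadjusted p under 0.05, beside 10.6% of all tested genes, 81 of 83 were negative, beside 49.8%, and none passed the threshold (all tested genes 0.762%).

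In IUGR piglets the paste gave 64 of 83 negative log2 fold changes, against 42.8% of all tested genes, with a median of -0.08 against 0.02. None of the 83 passed the threshold (all tested genes 0.029%), and DESeq2 called none (0.125%). None had an unadjusted p under 0.05 either, where 2.9% of all tested genes were higher and 1.65% lower. RPLP0 had the smallest p. It was at 666 to 872 CPM (median 777) in untreated and at 491 to 1081 CPM (median 632) in treated piglets, with a log2 fold change of -0.20 ± 0.10 (SE, n = 10 and 13, edgeR adjusted p = 1.00). The 1081 CPM belonged to pig 46, and without pigs 39 and 46 the treated piglets were at 491 to 794 CPM, still overlapping the untreated. Leaving out pigs 38, 39 and 46 moved the comparison away from 0. The median was then -0.15, 80 of 83 genes were negative, beside 50.2% of all tested genes, and 18 members (21.7%) were lower at an unadjusted p under 0.05, beside 6.22% of all tested genes. The smallest p were those of RPLP1, at -0.33 ± 0.10 (edgeR adjusted p = 0.131), RPL10, at -0.37 ± 0.11 (edgeR adjusted p = 0.154), and RPLP0, at -0.28 ± 0.09 (edgeR adjusted p = 0.162), so that no member passed after adjustment (all tested genes 0.0653%). With limma voom RPL10 alone passed, at -0.45 (limma adjusted p = 0.0450, all tested genes 0.849%), and 39 members were lower at an unadjusted p under 0.05, beside 8.96% of all tested genes. RPL10 (chrX:124927249-124929791) was at 520 to 789 CPM (median 601) in untreated and at 237 to 1178 CPM (median 494) in treated IUGR piglets. The 789 CPM was pig 38, and the 1178 CPM was again pig 46. Without pigs 38, 39 and 46 the ranges were 520 to 720 CPM in untreated and 237 to 628 CPM in treated IUGR piglets, still overlapping.

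**Figure D5:**
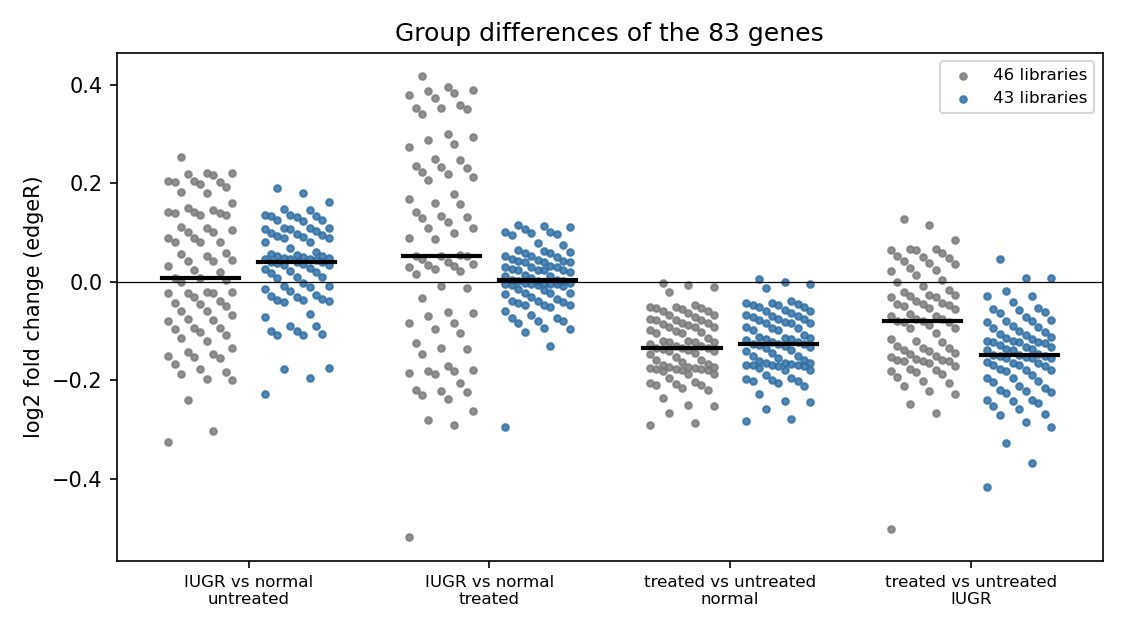
Log2 fold change (edgeR) of each of the 83 genes in 4 comparisons, with all 46 libraries (grey) and without pigs 38, 39 and 46 (blue), with medians as bars. For the paste in normal-sized piglets the points lie below 0 with a median of -0.13, and the spread of the IUGR comparisons shrinks without the 3 libraries.

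The difference between the 2 effects was tested as an interaction and none of the 83 passed it (all tested genes 0%), nor with DESeq2 (0.0434%), limma voom (0.0218%) or edgeR without the 3 libraries (0.00726%). Negative values were found in 24 of 83, beside 45% of all tested genes, with a median of 0.05. The balance turned without the 3 libraries, where 53 of 83 were negative (all tested genes 51.2%) with a median of -0.03, and with limma voom 43 of 83 were negative (49.8%) with a median of -0.01. RPL26L1 alone had an unadjusted p under 0.05, beside 4.44% of all tested genes higher and 2.22% lower. Its effect of the paste was -0.25 ± 0.09 in normal-sized and 0.07 ± 0.09 in IUGR piglets, and the interaction was 0.32 ± 0.13 (SE, edgeR adjusted p = 0.611). RPL26L1 was at 12.2 to 18.4 CPM (median 15.7) in treated IUGR piglets, so all 4 groups overlapped. Both subunits gave alike values in the paste comparisons. The 31 small subunit genes had a median of -0.13 in normal-sized and -0.07 in IUGR piglets, and all 31 were negative in the former.

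The other genes of ribosome production showed no call in any of the 5 comparisons with edgeR, given here with all 46 libraries only. These lists comprised 76 mitochondrial ribosomal proteins, 51 ribosome biogenesis factors, 13 subunits and factors of RNA polymerase I, 25 translation factors, 20 genes of mTORC1 signalling and 6 genes around p53 and MYC. At an unadjusted p under 0.05, 22 of the 76 mitochondrial ribosomal proteins were lower and 1 higher with the paste in normal-sized piglets, beside 5.45% and 3.08% of all tested genes, with a median log2 fold change of -0.20. The mitochondrial gene MRPL51 was at a median of 33.6 CPM in untreated and 23.3 CPM in treated normal-sized piglets (-0.55 ± 0.13, edgeR adjusted p = 0.135). In untreated IUGR piglets 11 of the 76 were lower and 1 higher than in untreated normal-sized ones, beside 6.09% and 6.45% of all tested genes, with a median of -0.15, where the cytosolic genes had 0.01.

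Of the biogenesis factors, 45 of 51 had a negative log2 fold change in untreated IUGR against untreated normal-sized piglets, beside 49% of all tested genes, with a median of -0.20. Of them 4 were lower at an unadjusted p under 0.05, beside 6.09% of all tested genes. In pigs 38, 39 and 46, 17 of the 51 (33.3%) were over 2-fold below the mean of the 43 in all 3. Of all tested genes 23.4% were. Pig 38 is labelled IUGR untreated, and its part in these differences was not tested. NCL, nucleolin, was at a median of 217 CPM against 246 CPM (-0.37 ± 0.14, edgeR adjusted p = 0.235). PNO1, needed to assemble the small subunit, was at 11.4 against 13.8 CPM (-0.36 ± 0.13, edgeR adjusted p = 0.248). For RNA polymerase I, which transcribes the ribosomal RNA genes, TAF1A was at 6.43 against 8.02 CPM (-0.39 ± 0.15, edgeR adjusted p = 0.272). Of the genes for translation, HNRNPA1, an RNA-binding protein, was at 207 against 272 CPM (-0.46 ± 0.16, edgeR adjusted p = 0.204) and the elongation factor EEF2 at 1224 against 1065 CPM (0.23 ± 0.10, edgeR adjusted p = 0.332). Of the translation factors, 24 of 25 were negative with the paste in IUGR piglets, beside 42.8% of all tested genes (median -0.09), where the cytosolic ribosomal protein genes had -0.08.

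MYC, the transcription factor known to drive ribosome production, was at 9.87 to 60.1 CPM (median 13.9) in untreated normal-sized and at 20.6 to 208 CPM (median 40.2) in untreated IUGR piglets. The groups overlapped and the difference of 1.50 ± 0.44 on the log2 scale was not past the threshold (edgeR adjusted p = 0.118). With the paste MYC was at 8.83 to 129 CPM (median 17.4) in IUGR and at 10.3 to 85.0 CPM (median 19.6) in normal-sized piglets. The log2 fold change with the paste was -1.06 ± 0.42 in IUGR piglets (edgeR adjusted p = 0.749). In normal-sized piglets it was 0.47 ± 0.42 (edgeR adjusted p = 0.841). The interaction was -1.53 ± 0.59 (edgeR adjusted p = 0.600), so none of these passed the threshold. MTOR, the kinase of mTORC1, was at a median of 56.7 CPM in untreated IUGR against 52.3 CPM in untreated normal-sized piglets (0.22 ± 0.13, edgeR adjusted p = 0.470).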

How the data were processed

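Liver RNA of 46 piglets was sequenced on a BGISEQ-500. Per the methods, the authors mapped reads with Bowtie2 to Sscrofa11.1, and the deposited table holds estimated counts, unscaled for depth or length. What program counted was not given in the sources used here. Of the deposited values 85.9% are whole numbers, and all were rounded. For 11 members over 50% of the values were not whole, and the source of their reads was not tested. All 18440 genes matched the RefSeq annotation by identifier.

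Differences were tested in R 4.3.3 by edgeR 4.0.16 after TMM scaling and filterByExpr with a minimum count of 10 over the 4 groups, and the robust quasi-likelihood F test on all 46 libraries. P-values were adjusted by Benjamini-Hochberg over 13780 genes with a threshold of 0.05. SEs come from the F statistic. Log2 CPM used a prior count of 2. Total counts were 15036591 to 19340218 per library, and the p-values measure the spread between piglets that may share a sow. The smallest chi-square per gene of the 1035 library pairs was 26.0, so no library was found deposited under 2 numbers.

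Alternatives were DESeq2 1.42.0, its size factors in edgeR, TMM without the members, no filter on low counts, limma 3.58.1 (voom with sample quality weights), leaving out pigs 38, 39 and 46, and leaving out each library. The members, lists and alternatives were chosen with earlier results of these data known. Genes were named by smallest p (4 per direction and comparison), largest and smallest SD over the libraries, or class (paralogs, stalk, RPL5, RPL11, RPS6), and some of these genes are not reported here. A further rule on counts per length was not applied, as transcript lengths were not used here. Of the members, RPL13, RPL19, RPL31, RPL10A, RPL26, RPL7, RPS2 and the others outside these rules were named after their values were seen. The code was tested on simulated data.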

Additional observations from a re-analysis of the deposited data

Results flagged for a closer look

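In the group labelled IUGR untreated, the only one of 10 or fewer piglets, 1 library lay far from the other 9 for 17 of 39 values looked at, where chance gives about 1 in 20 (Dixon's test at 95%). Some of these genes were named for a large SD over the libraries, which pig 38 helps to set, and the genes move together, so this rate does not apply to the count. The library was that of pig 38 each time. Its gap to the nearest other piglet, as a share of the whole range of log2 CPM in the group, was 0.911 for RPL22, 0.903 for RPL9, 0.882 for RPS24, 0.875 for RPL39 and 0.865 for RPS3A. It was 0.818 for RPS4X, 0.781 for RPL7L1, 0.739 for RPL5, 0.737 for RPL36AL, 0.734 for RPS15A, 0.729 for RPS27L and 0.725 for RPL22L1. For RPL34, RPL35A and RPS13 it was 0.572, 0.474 and 0.470. In these 15 genes pig 38 was the lowest. It was the highest for RPS19BP1 and RPLP1, with 0.487 and 0.483. The summed share of the 83 genes in pig 38, 2.22%, did not stand apart.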

How the results depend on the processing

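With 46 libraries and adjusted p-values, no member was called by edgeR under any scaling or filter or by DESeq2. Limma voom called 4 members for the paste in normal-sized and 1 in IUGR piglets, and the cause was not tested. Leaving out each library in turn gave 0 calls in all 5 comparisons. The median log2 fold change of the members then ranged from -0.02 to 0.05 (IUGR, untreated), 0.01 to 0.10 (IUGR, treated), -0.17 to -0.09 (paste, normal-sized), -0.13 to -0.04 (paste, IUGR) and -0.01 to 0.09 (interaction). For the paste in IUGR piglets, RPS14, RPL37 and RPL3L turned from positive to negative, to -0.21, -0.15 and -0.11 with limma voom and to -0.17, -0.10 and -0.030 without pigs 38, 39 and 46, and none of them was called in any fit. RPL26L1 and RPL27 passed the threshold only with limma voom. Over the total without the 10 most abundant genes the median share was 3.40 and 2.98% in untreated and treated normal-sized and 3.43 and 3.01% in untreated and treated IUGR piglets. The median correlation of members was 0.80 without pigs 38, 39 and 46. No analysis paired by litter was possible because the labels do not give the litter. Leaving out pigs 38, 39 and 46 raised the calls over all genes from 6 to 199 (IUGR, untreated), 0 to 105 (paste, normal-sized) and 4 to 9 (paste, IUGR), lowered them from 1 to 0 (IUGR, treated) and gave 1 in place of 0 for the interaction. DESeq2 called 159, 10, 31, 23 and 8 genes in the 5 comparisons and limma voom 167, 19, 783, 117 and 3, where edgeR called 6, 1, 0, 4 and 0. With the size factors of DESeq2 in edgeR these were 2, 0, 0, 0 and 0. The smallest count of a member was 10, in RPL3L, and that of RPL22L1 in the 3 libraries was as low as 12, so counting error is largest for these genes.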
